A study of Mus musculus with 3 samples.

Results

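The p53 pathway and its DNA damage response were followed in mouse liver through 33 genes, chosen by symbol: Trp53 itself, its regulators Mdm2 and Mdm4, known targets of p53, and sensors or repairers of DNA damage. All 33 were found among the 32285 features of the count tables. Single-nucleus RNA sequencing had been applied to frozen livers from male C57BL/6N mice (strain C57BL/6 in the labels), 8 weeks old when the feeding began, in 3 libraries with 1 library per group. SD mice ate a standard diet. MASLD mice were fed for 18 weeks to develop steatotic liver disease linked to metabolic dysfunction, with glucose and fructose in their drinking water. Aza-TdC mice had the same food and drink for 18 weeks and were gavaged daily with 5-Aza-4′-thio-2′-deoxycytidine at 2 mg/kg from week 14 to week 18. This cytidine analogue is known to be built into DNA and to deplete the DNA methyltransferase DNMT1. The labels do not say how many animals stand behind a library, and no group combined the standard diet with Aza-TdC.

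The protein p53 is a transcription factor that is held at a low level by MDM2, which marks it for destruction, and by MDM4, which masks it. Kinases such as ATM and ATR respond to damaged or stalled DNA and release it, and p53 then switches on genes that stop the cell cycle, trigger death, aid repair and, through MDM2, limit p53 itself. Much of this control acts on the protein, so the mRNA of Trp53 says little about p53 activity. In the liver several targets, such as Gdf15 and Gadd45a, can also be switched on by nutrient and protein-folding stress without p53.

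The p53 protein binds a decamer that usually occurs as a pair, and such pairs were looked for in the RefSeq promoter windows of build GRCm38.p6, each 300 bases long, from 250 before to 50 after an annotated start. Windows were found for 23 of the 33 members, 32 windows in all. The consensus decamer of p53 is its own reverse complement, so a match covers both strands. A match was present in 11 of these 32 windows (34.4%), against 8.36% of all 32851 windows. The 11 windows belong to 10 members, because 2 overlapping windows of Aen hold the same decamer. Known p53 targets were chosen as members, so a higher share is partly set by that choice. A pair of exact matches, meaning 2 decamers at most 13 bases apart, was present in 1 member window, upstream of Cdkn1a, and in 0.0731% of all windows. Of the 11 members that were higher in MASLD hepatocytes, described below, 8 had a window and 2 of these, Cdkn1a and Gadd45a, held a decamer in it. The sequences that follow are shown because Cdkn1a and Gadd45a are the members higher in MASLD hepatocytes that held a decamer, and because Cdkn1a and Mdm2 are among the members higher in macrophages with Aza-TdC. Capitals mark the decamers.
Cdkn1a, chr17:29090729-29091028, plus strand: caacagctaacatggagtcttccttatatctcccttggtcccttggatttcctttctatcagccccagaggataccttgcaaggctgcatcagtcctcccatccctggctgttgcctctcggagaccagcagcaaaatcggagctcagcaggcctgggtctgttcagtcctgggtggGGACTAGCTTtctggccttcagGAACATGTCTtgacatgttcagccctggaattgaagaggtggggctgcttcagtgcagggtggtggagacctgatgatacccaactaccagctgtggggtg
Gadd45a, chr6:67037358-67037657, minus strand: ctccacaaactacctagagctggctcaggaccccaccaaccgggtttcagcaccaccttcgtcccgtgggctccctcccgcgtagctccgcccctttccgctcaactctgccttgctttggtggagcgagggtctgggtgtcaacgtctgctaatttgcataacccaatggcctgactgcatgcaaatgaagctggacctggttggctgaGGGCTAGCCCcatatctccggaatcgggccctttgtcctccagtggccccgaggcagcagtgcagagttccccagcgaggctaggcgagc
Mdm2, chr10:117710709-117711008, minus strand: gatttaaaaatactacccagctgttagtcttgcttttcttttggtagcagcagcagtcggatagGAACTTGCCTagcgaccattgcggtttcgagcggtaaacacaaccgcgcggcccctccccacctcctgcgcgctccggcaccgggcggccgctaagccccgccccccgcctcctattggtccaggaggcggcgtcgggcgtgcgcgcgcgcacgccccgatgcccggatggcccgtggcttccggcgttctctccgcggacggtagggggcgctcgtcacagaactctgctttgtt
In Cdkn1a the decamers began 73 and 51 bases before the start and were 12 bases apart. The stretch that directly follows the second decamer misses the consensus only at its first letter and so was not marked. Which of these stretches p53 pairs on was therefore not settled by the exact match. A second Cdkn1a start, with the window chr17:29093519-29093818, had none. The decamer began 40 bases before the start in Gadd45a and 186 bases before it in Mdm2. A match describes the letters of a window and does not show binding. CpG dinucleotides reached at least 0.6 of the number expected from base content in 68.8% of member windows and in 35.8% of all windows.

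The libraries held 7139, 6928 and 7598 barcodes (SD, MASLD, Aza-TdC, the order of every triplet of values below) with 45162618, 43569644 and 51789068 UMIs, and 7139, 6726 and 7591 barcodes were kept as nuclei. Any 2 libraries shared 9 to 15 barcodes. Hepatocyte-like nuclei, named from 20 liver markers, numbered 6869, 6045 and 6809. Almost all of them fell into different clusters by library: clusters 0, 1 and 4 in SD, clusters 8, 9, 12 and 14 in MASLD, and clusters 12, 13, 14 and 15 in Aza-TdC. Among their 10 leading genes, clusters 8 and 9 each held 1 marker of another class (Spp1 and Themis) and 0 hepatocyte markers. Clusters 0, 1, 4, 12, 13 and 14 also held 0 hepatocyte markers there, and cluster 15 held 1. By the naming rule given below, clusters 8 and 9 reached 17 and 16 of the 20 hepatocyte markers. Clusters 0, 1 and 4 reached 13, 14 and 12. Because the clusters differed by library, the hepatocyte comparisons below are comparisons between these numbered clusters. Of 18 signs of RNA quality and of cytoplasmic or blood RNA, 13 were at least 2-fold higher in MASLD than in SD hepatocyte-like nuclei, and 12 were at least 2-fold lower in Aza-TdC than in MASLD. The haemoglobin gene Hbb-bs, for example, stood at 8.2, 148 and 13.9 CPM (UMIs of the gene per 1000000 UMIs of the class in that library) and the mitochondrial gene mt-Cytb at 94.3, 275 and 68.8. Dnmt1 stood at 7.73, 9.03 and 9.9 CPM. With 1 library per group no test between groups was possible, and every 95% interval below covers counting error only, not the spread between animals. A difference in level per nucleus and a difference in the make-up of a class cannot be told apart.

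In hepatocyte-like nuclei the disease diet went with higher levels of a part of the p53 target set, while Trp53 and the repair genes stayed within 2-fold. Of 30 members measured, meaning at least 20 UMIs between the compared libraries, 11 were at least 2-fold higher in MASLD than in SD and 0 were at least 2-fold lower. Across all 15839 genes measured in the same way, 13.8% were at least 2-fold higher and 5.04% at least 2-fold lower. The median log2 ratio was 0.29 over the members and 0.16 over all genes. The 11 members were the hormone gene Gdf15, the noncoding RNAs Trp53cor1 and Pvt1, the arrest genes Gadd45a, Cdkn1a, Btg2 and Plk2, and the death genes Eda2r, Fas, Bbc3 and Perp. The RNA quality signs differed between the same libraries, as given above. Among nuclei matched for a mitochondrial share, 11 members were at least 2-fold higher, with 1592 SD and 593 MASLD nuclei left. Without clusters 8 and 9 the number was 10, with 6867 SD and 475 MASLD nuclei left. Of these MASLD nuclei, 381 were of cluster 12 and 68 of cluster 14, both described below. The SD nuclei were those of clusters 0, 1 and 4, so this comparison is not of like clusters. Single ratios were less steady than these numbers. Over all hepatocyte comparisons, 34 log2 ratios of members were marked as moved under the match and 55 as the same. Without clusters 8 and 9, 38 were marked as moved and 52 as the same.

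**Figure D1:**
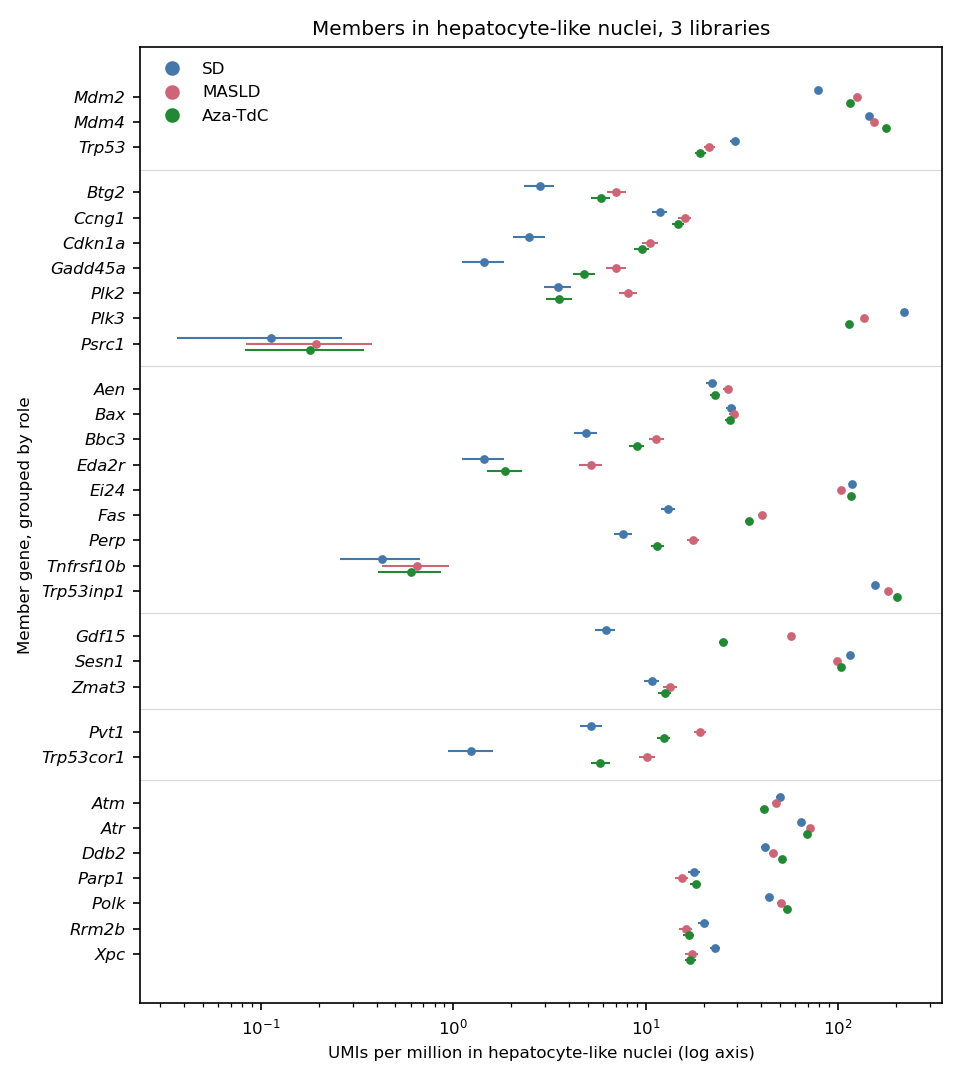
CPM of the 31 members drawn, in hepatocyte-like nuclei of each library, on a log axis with 95% Poisson intervals, grouped by role. Gdf15 and Trp53cor1 lie farthest apart between SD and MASLD, and the repair genes lie close together in all 3 libraries.

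Among the regulators, Trp53 had 29, 21.4 and 19.3 CPM and was highest in SD. Its log2 ratio of MASLD to SD was -0.44 (-0.56 to -0.31). Mdm2, which encodes the ligase that degrades p53 and is itself a target, had 78.6, 125 and 116 CPM. Both libraries on the disease diet lay above SD, with a log2 ratio of 0.67 (0.61 to 0.73) for MASLD. Mdm4 had 145, 153 and 177 CPM and was highest in Aza-TdC.

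Of the 7 arrest and growth genes, 6 were measured and 4 were at least 2-fold higher in MASLD than in SD. Cdkn1a, which encodes the cyclin-dependent kinase inhibitor p21, had 2.48 (2.04 to 2.99) CPM with the standard diet, 10.6 (9.62 to 11.6) in MASLD and 9.56 (8.72 to 10.5) after Aza-TdC. Both disease-diet libraries stood clear of SD, 4.27-fold in MASLD and 3.86-fold in Aza-TdC, and their own intervals overlapped. A Cdkn1a UMI was found in 1.5, 6.04 and 6.32% of the nuclei.

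Gadd45a, whose product is known to bind PCNA and stress kinase activators, had 1.44, 7.03 and 4.8 CPM and a log2 ratio of MASLD to SD of 2.29 (1.89 to 2.7). Btg2, an antiproliferative cofactor of mRNA deadenylation, had 2.82, 7.05 and 5.84 CPM and a log2 ratio of 1.32 (1.02 to 1.64). Plk2, a polo-like kinase gene, had 3.49, 8.09 and 3.56 CPM, with MASLD alone above the other libraries. The log2 ratio of Plk2 was 1.21 (0.93 to 1.5). Ccng1, encoding cyclin G1, had 11.8, 15.9 and 14.8 CPM, a smaller difference of 0.43 (0.26 to 0.6). Plk3, another polo-like kinase gene, was lower rather than higher on the disease diet, with 220, 137 and 114 CPM and a log2 ratio of -0.68 (-0.73 to -0.64). Psrc1, a spindle gene, had only 5, 8 and 9 UMIs and was not measured.

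Of the 11 death and survival genes, 9 were measured and 4 were at least 2-fold higher in MASLD. Fas, the death receptor gene, had 13, 40.2 and 34.6 CPM and a log2 ratio of 1.62 (1.49 to 1.76). Eda2r, a receptor gene of the tumour necrosis factor receptor family, had 1.44, 5.17 and 1.85 CPM. MASLD was high for Eda2r, and the intervals of SD (1.11 to 1.84) and Aza-TdC (1.49 to 2.27) overlapped. Bbc3, which encodes the BCL2 antagonist PUMA, had 4.89, 11.4 and 8.98 CPM and a log2 ratio of 1.22 (0.98 to 1.46). Perp, a membrane protein gene linked to desmosomes and p53-dependent death, had 7.61, 17.6 and 11.5 CPM and a log2 ratio of 1.21 (1.02 to 1.4). Bax, which encodes a pore-forming effector of apoptosis, was nearly level, at 27.9, 28.7 and 27.4 CPM and a log2 ratio of 0.04 (-0.07 to 0.16). The other measured members of this group, Trp53inp1, Ei24, Aen and Tnfrsf10b, had log2 ratios from -0.19 to 0.6. Phlda3, encoding an inhibitor of AKT, had 0, 14 and 4 UMIs and so fell short of the 20 UMIs required. Against a floor of 3 UMIs in the SD library it was at least 4.99-fold higher in MASLD. Pmaip1, encoding NOXA, had 1, 3 and 0 UMIs.

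Gdf15, the gene of a stress hormone that acts on the hindbrain to lower food intake, had the largest MASLD to SD ratio of the measured members. Its level was 6.19 (5.48 to 6.97) CPM with the standard diet, 57.3 (55 to 59.7) in MASLD and 25.3 (23.9 to 26.8) after Aza-TdC. All 3 libraries were apart, and the log2 ratio of MASLD to SD was 3.21 (3.03 to 3.4). A UMI of Gdf15 was found in 3.65, 23.5 and 13.1% of the nuclei. After thinning every nucleus to 2000 UMIs, which left out 83 to 148 nuclei per library, the shares were 1.26, 9.52 and 4.61%, in the same order. Sesn1, an inhibitor of mTORC1 signalling, and Zmat3, an RNA-binding regulator of splicing, had log2 ratios of -0.23 and 0.31.

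Both noncoding RNAs were higher in MASLD. Trp53cor1, also known as lincRNA-p21, had 1.24, 10.2 and 5.82 CPM and a log2 ratio of 3.05 (2.64 to 3.48). It lies on the minus strand at chr17:29057430-29079179 (GRCm38), so its start is the edge nearest Cdkn1a. A gap of 11796 bases separates it from Cdkn1a, which lies on the plus strand at chr17:29090976-29100727. Pvt1, a noncoding RNA next to Myc, had 5.2, 19.2 and 12.4 CPM and a log2 ratio of 1.88 (1.67 to 2.1). Trp53cor1 and Gadd45a are among 8 members that overlap an annotated gene on the opposite strand, and the sources used here do not say whether counting used strand.

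All 7 repair and damage-sensing members stayed within 2-fold. They are the kinase genes Atm and Atr, the nucleotide excision genes Xpc and Ddb2, the lesion-bypass polymerase gene Polk, the ribonucleotide reductase subunit gene Rrm2b and Parp1, which encodes a strand-break sensor. Their log2 ratios of MASLD to SD ran from -0.41 (Xpc) to 0.21 (Polk). Xpc had 23, 17.3 and 17.1 CPM and Ddb2 had 41.8, 45.9 and 51.3.

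**Figure D2:**
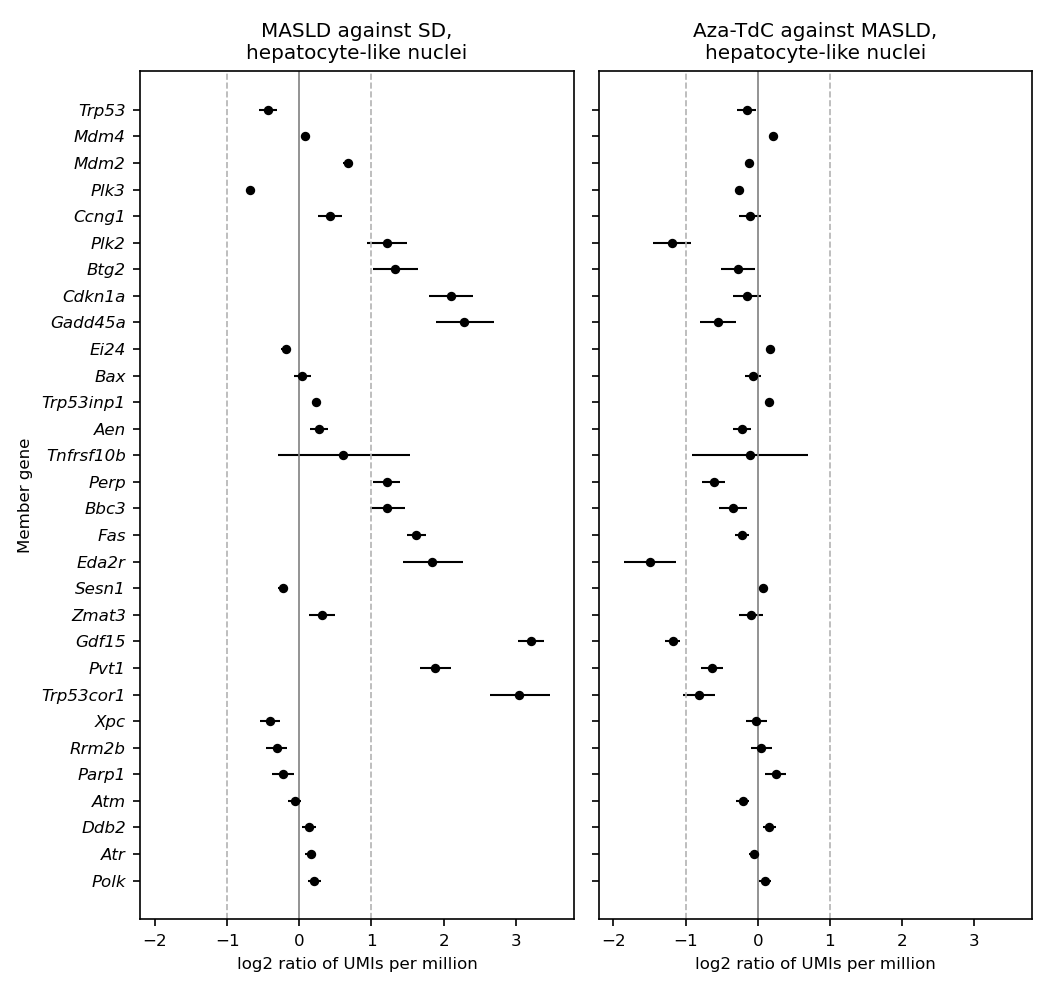
Log2 ratios of CPM in hepatocyte-like nuclei for the 30 measured members, MASLD against SD and Aza-TdC against MASLD, with 95% counting intervals and dashed lines at 2-fold. In MASLD against SD 11 members lie past the upper line, and in Aza-TdC against MASLD 3, Eda2r, Plk2 and Gdf15, lie past the lower one. Both comparisons share the MASLD library.

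With Aza-TdC, 0 of 30 measured members were at least 2-fold higher than in MASLD hepatocyte-like nuclei and 3 were at least 2-fold lower. Over 16017 genes, 2.88% were at least 2-fold higher and 5.32% at least 2-fold lower. The median log2 ratio was -0.13 over the members and -0.1 over all genes. The 3 lower members were Eda2r with a log2 ratio of -1.49 (-1.85 to -1.13), Plk2 with -1.19 (-1.46 to -0.92) and Gdf15 with -1.18 (-1.28 to -1.08). Cdkn1a differed little, at -0.15 (-0.34 to 0.04), as did Fas, at -0.21 (-0.31 to -0.12). Values in between were found for Trp53cor1 at -0.81 (-1.03 to -0.59), Pvt1 at -0.63 (-0.78 to -0.48), Perp at -0.61 (-0.77 to -0.45) and Gadd45a at -0.55 (-0.8 to -0.3). The repair members lay between -0.2 (Atm) and 0.25 (Parp1). This comparison and that of MASLD with SD share the MASLD library, so a value that is high there by chance raises one ratio and lowers the other.

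Set against SD, the Aza-TdC library had 7 of 30 measured members at least 2-fold higher and 0 at least 2-fold lower, where 10.6% of 15912 genes were at least 2-fold higher and 5.08% at least 2-fold lower. The 7 were Trp53cor1 (log2 ratio 2.23), Gdf15 (2.03), Cdkn1a (1.95), Gadd45a (1.74), Fas (1.41), Pvt1 (1.25) and Btg2 (1.05). Plk2 at 0.03 (-0.29 to 0.35) and Eda2r at 0.36 (-0.12 to 0.84) had intervals that include no difference. Plk3 had the lowest ratio, -0.95 (-0.99 to -0.9).

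A few members peaked in 1 small hepatocyte-like cluster. Cluster 14 held 68 nuclei from MASLD, 78 from Aza-TdC and 0 from SD. It had the stress genes Fgf21, Osgin1 and Nupr1 and also Gadd45a among its leading genes. In MASLD its nuclei had 68.8 (50.9 to 91) CPM of Gadd45a, 57.6 (41.3 to 78.1) of Cdkn1a, 178 (149 to 212) of Gdf15 and 47.8 (33.1 to 66.7) of Bbc3. The large MASLD clusters 8 and 9 had 8.46 and 4.3 CPM of Gadd45a, 10.8 and 9.34 of Cdkn1a, 61 and 52 of Gdf15 and 11.3 and 10.3 of Bbc3. Bax, nearly level between libraries, stood at 63.2 (46.1 to 84.6) CPM in MASLD cluster 14 against 27.4 and 28.7 in clusters 8 and 9. Other members had no such peak: Trp53cor1, Fas, Mdm2 and Eda2r had 11.2, 36.5, 111 and 4.21 CPM in MASLD cluster 14. Against the other MASLD hepatocyte-like nuclei, 7 of 30 measured members (23.3%) were at least 2-fold higher in cluster 14 and 1 (3.33%) lower, where 17.5% and 17.6% of all genes were. For Aza-TdC nuclei of cluster 14 the numbers were 5 (16.7%) higher and 1 (3.33%) lower, where 15.6% and 15.2% of genes were. The members' shares of higher genes are near those of all genes; the values above are of the named genes. These values describe clusters made from the same counts, although of the members only Phlda3, Pmaip1 and Pvt1 were among the 3000 genes used for clustering.

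**Figure D3:**
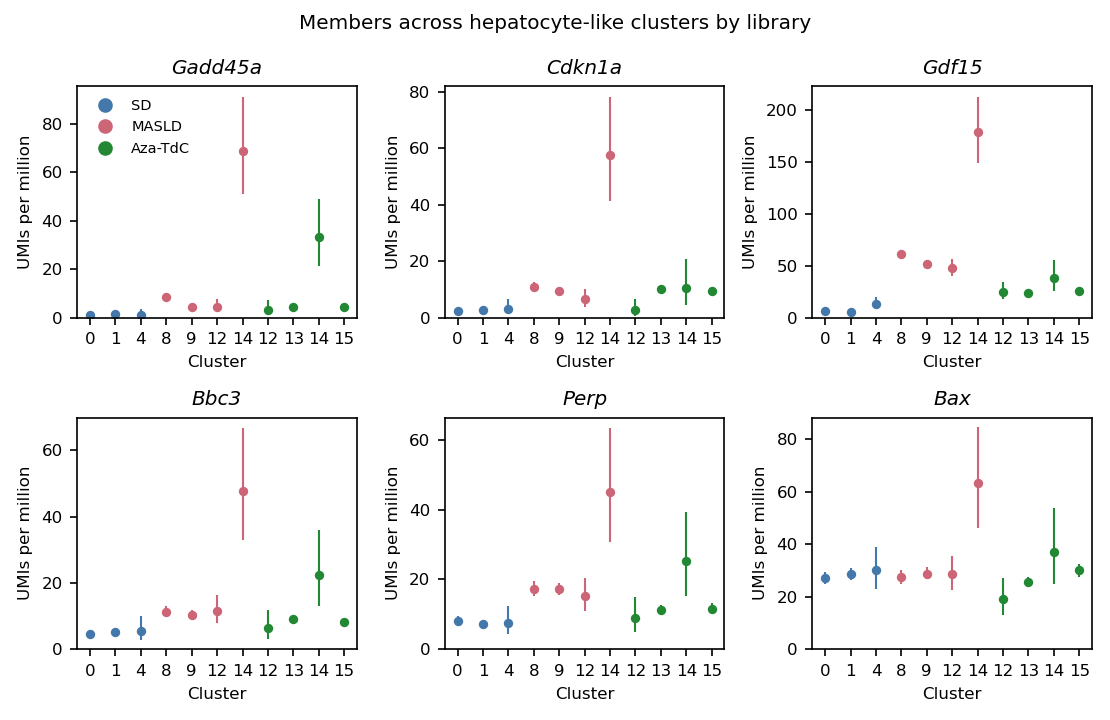
CPM of 6 members in each hepatocyte-like cluster by library, with 95% Poisson intervals. MASLD cluster 14 is the highest point in all 6 panels, and for Cdkn1a and Gdf15 the Aza-TdC point of cluster 14 lies well below it.

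Within cluster 14, 5 of 23 measured members were at least 2-fold lower in Aza-TdC than in MASLD and 0 were at least 2-fold higher, where 6.84% of 8818 genes were at least 2-fold lower and 3.33% at least 2-fold higher. Cdkn1a had 8 UMIs in Aza-TdC and 41 in MASLD, 10.6 and 57.6 CPM, a log2 ratio of -2.44 (-3.75 to -1.33). Gdf15 had 38.4 and 178 CPM, a log2 ratio of -2.22 (-2.85 to -1.62). Bbc3 was at -1.08 (-2.02 to -0.2), Gadd45a at -1.06 (-1.81 to -0.33) and Xpc at -1.0 (-2.35 to 0.24), whose interval includes no difference. Without cluster 14, 11 members were at least 2-fold higher in MASLD than in SD hepatocyte-like nuclei.

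Cluster 12, with Glul and Slc1a2, genes of hepatocytes around the central vein, among its leading genes, held 381 MASLD and 206 Aza-TdC nuclei. SD cluster 4, with 274 nuclei, shared Slc1a2, Slc22a3 and Kif26b with it among the leading genes. MASLD cluster 12 had 8 of 27 measured members at least 2-fold higher than SD cluster 4 and 0 lower, where 8.69% and 3.94% of 10685 genes were. These were Trp53cor1 (24 UMIs against 1), Eda2r, Gdf15, Plk2, Fas, Cdkn1a, Bbc3 and Perp. Gadd45a, with 12 and 2 UMIs, and Btg2, with 6 and 3, were not measured there. In Aza-TdC cluster 12 only Fas of 23 measured members was at least 2-fold higher than in SD cluster 4, at 1.02 (0.43 to 1.63), and Plk3 and Trp53 were at least 2-fold lower, where 5.5% and 5.63% of 9949 genes were. Within cluster 12, 3 of 27 measured members were at least 2-fold lower in Aza-TdC than in MASLD and 0 higher, where 6.01% and 2.16% of 10527 genes were. They were Eda2r at -2.51 (-5.65 to -0.46), Trp53cor1 at -1.77 (-3.76 to -0.23) and Cdkn1a at -1.35 (-3.38 to 0.25).

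In macrophage-like nuclei several members were higher, not lower, with Aza-TdC. The class held 31, 204 and 311 nuclei. Of 26 measured members, 7 were at least 2-fold higher in Aza-TdC than in MASLD and 1, Btg2, was at least 2-fold lower. Over 9618 genes, 6.16% were at least 2-fold higher and 10.3% at least 2-fold lower. The median log2 ratio was 0.49 over the members and -0.04 over all genes. The 7 were Cdkn1a, Trp53cor1, Zmat3, Pvt1, Bax, Aen and Mdm2.

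Cdkn1a had 0, 16 and 172 UMIs in macrophage-like nuclei, and 24.7 (14.1 to 40.1) CPM in MASLD against 160 (137 to 186) in Aza-TdC. Aza-TdC stood alone, 6.48-fold above MASLD with a log2 ratio of 2.7 (1.95 to 3.53), and at least 4.94-fold above SD against a floor of 3 UMIs in that library. A Cdkn1a UMI was found in 0 of 31 SD nuclei, which allows a share of nuclei with a UMI of up to 9.68% by the limit of 3 counts and 11.2% by the exact interval. It was found in 14 of 204 MASLD nuclei (6.86%, 3.8 to 11.2) and in 114 of 311 Aza-TdC nuclei (36.7%, 31.3 to 42.3). Thinned to 1000 UMIs per nucleus, with 11 MASLD and 30 Aza-TdC nuclei left out, these shares were 2.78% and 14.2%. How many of these UMIs came from free RNA was not tested. In the same Aza-TdC library a Cdkn1a UMI was found in 4 of 172 endothelial-like nuclei (2.33%), 1 of 85 stellate-like nuclei (1.18%) and 6.32% of hepatocyte-like nuclei. Median depths there were 1598, 1906 and 6767 UMIs, against 2876 in macrophage-like nuclei. Thinned to 1000 UMIs, the shares in these 3 classes were 1.16%, 0.469% and 0.921%.

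Trp53cor1, the neighbour of Cdkn1a, had 0, 7 and 73 UMIs in macrophage-like nuclei, or 0, 10.8 and 67.8 CPM. Its log2 ratio of Aza-TdC to MASLD was 2.65 (1.54 to 4.02). Zmat3 had 3, 8 and 79 UMIs, or 32.4, 12.3 and 73.4 CPM, and a log2 ratio of 2.57 (1.52 to 3.83). The SD interval of Zmat3, 6.67 to 94.6, covers both other levels. Pvt1 had 615, 725 and 1947 CPM and a log2 ratio of 1.43 (1.28 to 1.57). Mdm2, the feedback inhibitor, had 97.1, 148 and 307 CPM and a log2 ratio of 1.05 (0.72 to 1.39). Bax had 21.6, 52.4 and 115 CPM and a log2 ratio of 1.14 (0.58 to 1.73). Aen, a nuclease gene of apoptosis, had 21.6, 17 and 36.2 CPM, and its log2 ratio was less certain, at 1.09 (0.1 to 2.21). Btg2 was lowest in Aza-TdC, with 75.5, 35.5 and 10.2 CPM and a log2 ratio of -1.8 (-2.98 to -0.7). Trp53 itself was nearly level, at 43.2, 41.6 and 38.1 CPM. The 7 repair members had log2 ratios from -0.07 (Parp1) to 0.87 (Polk).

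**Figure D4:**
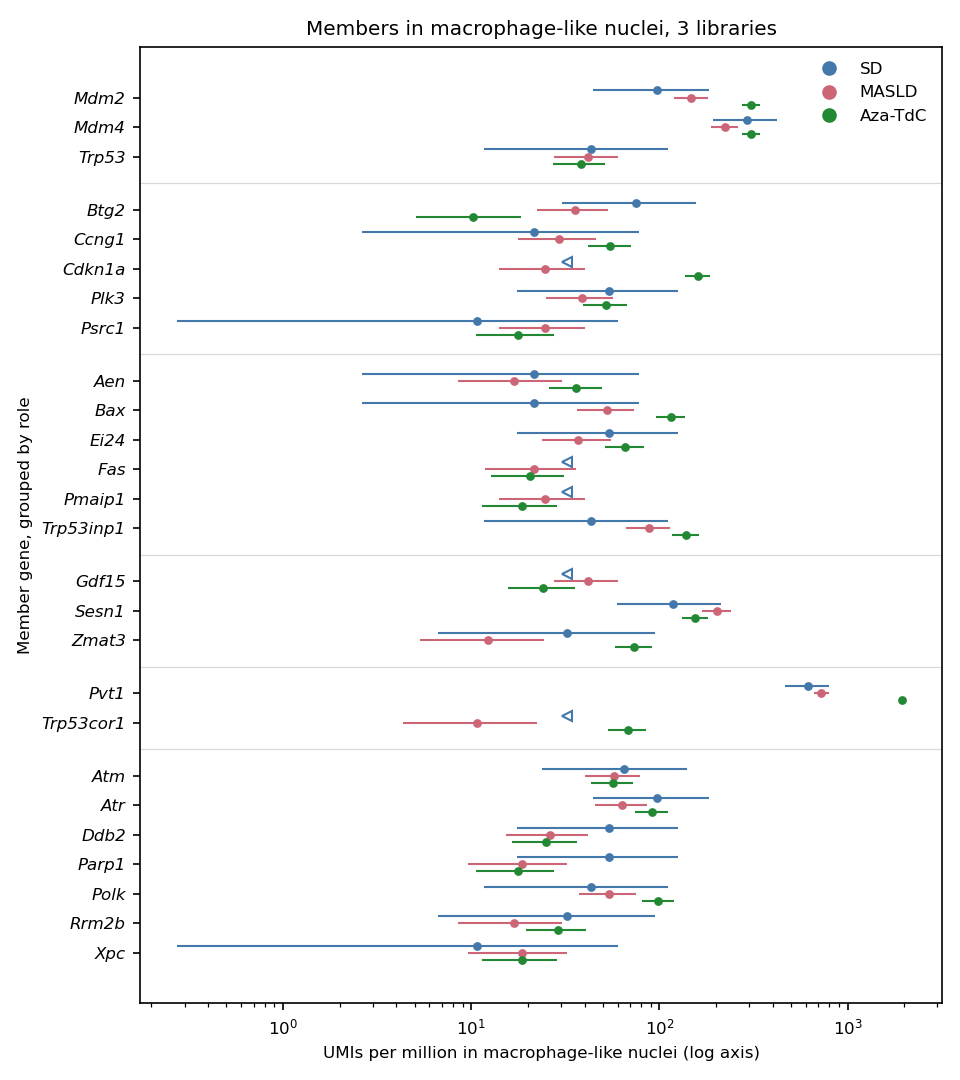
CPM of the 26 members drawn, in macrophage-like nuclei of each library, on a log axis with 95% Poisson intervals. Open triangles mark 0 UMIs, drawn at the level of 3 UMIs in that library. Cdkn1a, Pvt1 and Trp53cor1 are well above the other libraries in Aza-TdC, and the SD intervals are wide because 31 nuclei were measured.

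Against the 31 SD macrophage-like nuclei, 3 of 16 measured members were at least 2-fold higher in MASLD and 2 lower, where 18.3% and 8.7% of genes were. In Aza-TdC 12 of 25 were higher and 2 lower, where 18.3% and 10.9% were. Several of these ratios rest on 0 UMIs in SD. At the floor of 3 UMIs, Cdkn1a, as above, and Trp53cor1, at least 2.1-fold, lay past 2-fold in Aza-TdC, and Gdf15, Fas and Pmaip1 did not.

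The same comparison of Aza-TdC with MASLD in hepatocyte-like nuclei gave log2 ratios of -0.15 for Cdkn1a, -0.81 for Trp53cor1, -0.09 for Zmat3, -0.63 for Pvt1, -0.07 for Bax, -0.22 for Aen and -0.11 for Mdm2. For each of these 7 members the counting intervals of the ratios in the 2 classes did not overlap. The 7 had been picked for a high macrophage ratio among the 24 members measured in both classes. Such a gap is therefore partly set by the choice and is no separate evidence of a difference between classes. Endothelial-like nuclei had 1 of 17 measured members at least 2-fold higher in Aza-TdC than in MASLD (Parp1, 1.47, 0.08 to 3.0) and 2 lower (Bax and Pvt1), where 5.23% and 6.87% of genes were. Stellate-like nuclei had 1 of 11 higher (Pvt1, 1.0, 0.17 to 1.87) and 1 lower (Xpc), where 4.72% and 6.35% were. Mesothelial-like nuclei had 1 of 6 higher (Trp53inp1) and 0 lower, where 9.83% and 6.99% were, and T and NK cell-like nuclei had 0 of 3 higher and 0 lower, where 8.69% and 8.24% were.

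**Figure D5:**
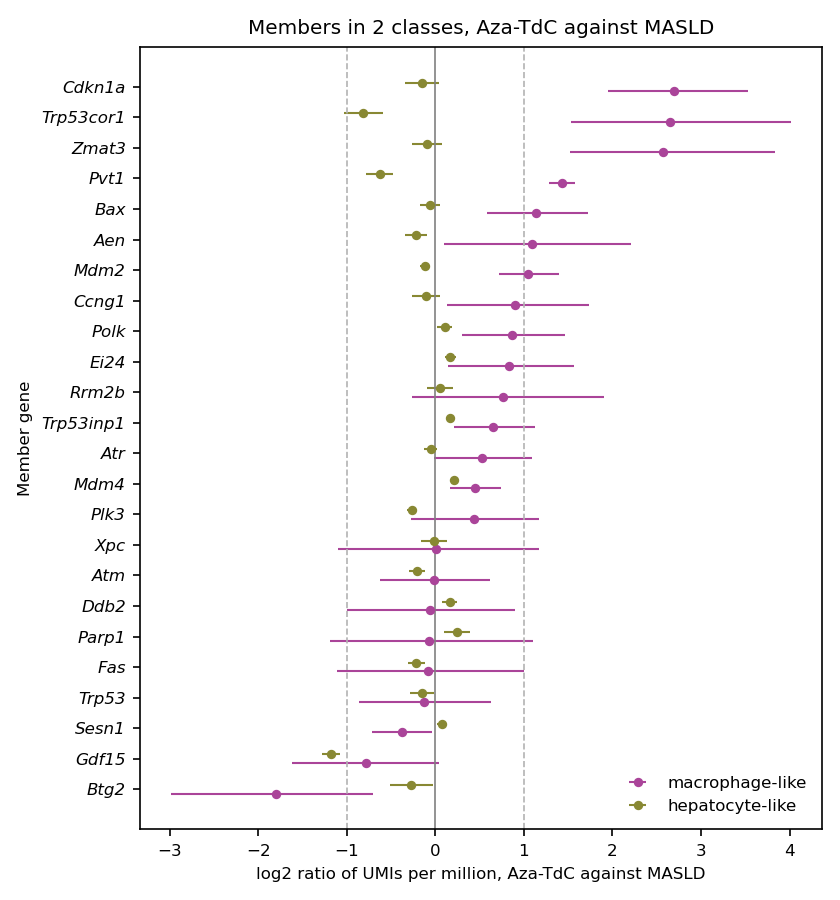
Log2 ratios of CPM, Aza-TdC against MASLD, for the 24 members measured in both macrophage-like and hepatocyte-like nuclei, with 95% counting intervals and dashed lines at 2-fold. Cdkn1a, Trp53cor1, Zmat3, Pvt1, Bax, Aen and Mdm2 lie past the upper line in macrophage-like nuclei and below 0 in hepatocyte-like nuclei.

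Different clusters made up most of the macrophage-like class in the 2 libraries. Cluster 20, with the Kupffer cell genes Timd4, Clec4f and Cd163 among its leading genes, held 209 Aza-TdC and 2 MASLD nuclei. Cluster 18, led by Kif23 and Mki67, held 18 and 90, and cluster 17, with Ccr2 and class II antigen genes, 15 and 78. Cluster 19 held 41 and 17, and cluster 10, led by Gpnmb, 28 and 17. Without cluster 20 the log2 ratio of Aza-TdC to MASLD was 1.9 for Cdkn1a, 2.24 for Trp53cor1 and 1.31 for Zmat3. Mdm2 at 0.44, Pvt1 at 0.64 and Bax at 0.59 were then under 2-fold, and Ccng1 stood at -1.52 in place of 0.9.

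Within cluster 10, Cdkn1a had 22 UMIs in Aza-TdC and 0 in MASLD, and Trp53cor1 had 11 and 0. Nuclei of cluster 10 were deeper, with a median of 8129.5 UMIs against 2310, 3048.5, 891.5 and 3033 in clusters 17, 18, 19 and 20. Whether it holds doublets was not tested, and it is part of the ratios given without cluster 20. Pvt1 was higher in Aza-TdC within clusters 10, 19 and 18, at 1.29 (0.86 to 1.75), 2.19 (1.19 to 3.37) and 0.71 (0.39 to 1.03). Within cluster 17 it stood at -0.43 (-1.44 to 0.44). Mdm2 stood at 0.45, -0.51, 0.58 and 0.72 within clusters 10, 17, 18 and 19, with intervals that all include no difference. Bax stood at -0.08 and -0.16 within clusters 10 and 18 and at 1.91 (0.13 to 3.56) within cluster 17. In cluster 19 Bax had 6 UMIs in Aza-TdC and 0 in MASLD. Zmat3 stood at 0.03 within cluster 10, from 9 and 5 UMIs. Within cluster 18 Zmat3 stood at 2.75 (-0.38 to 6.33), from 3 and 2 UMIs. Cdkn1a counts in clusters 17, 18 and 19 were low, and its level was higher in Aza-TdC in all 3 with intervals that include no difference. In cluster 19 it had 197 CPM from 7 UMIs in Aza-TdC and 55.5 CPM from 1 in MASLD, a log2 ratio of 1.83 (-1.13 to 7.32). In cluster 18 it had 64.5 CPM from 4 UMIs in Aza-TdC and 39.5 CPM from 11 in MASLD, a log2 ratio of 0.71 (-1.4 to 2.46). In cluster 17 it had 84.3 CPM from 3 UMIs in Aza-TdC and 20 CPM from 4 in MASLD, a log2 ratio of 2.08 (-0.7 to 4.64).

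Genes of dividing cells were lower in the macrophage-like class as a whole. Of 30 listed cycling genes, 19 were measured in macrophage-like nuclei, 17 were at least 2-fold lower in Aza-TdC than in MASLD and 0 were higher, with a median log2 ratio of -3.23. Over all 9618 genes 10.3% were lower and 6.16% higher, the shares to set beside every list in this paragraph. Cluster 18, led by Kif23 and Mki67, held 90 of 204 MASLD nuclei of the class and 18 of 311 Aza-TdC nuclei. How much of these list differences is a difference in make-up was not tested. Mki67 had 281 and 25.1 CPM in MASLD and Aza-TdC, and Kif11, a spindle motor gene, had 188 and 8.36. Of 25 measured genes of double-strand break and crosslink repair, several of which act during replication, 11 were at least 2-fold lower and 0 higher. They included Bard1, the partner of Brca1, at -3.8 (-5.5 to -2.47), and the polymerase gene Polq at -3.5 (-5.21 to -2.13). Of 19 measured genes of damage signalling and checkpoints, 7 were at least 2-fold lower and 1 higher, and the histone gene H2afx had 35.5 and 6.5 CPM. RNA quality signs were lower as well, 16 of 18 by at least 2-fold, with mt-Cytb at 1217 and 154 CPM. Hepatocyte markers stood in macrophage-like nuclei at 0.447, 0.383 and 0.35 of their hepatocyte level. The part of these differences in the members' values was not tested. Among nuclei with at most 1% mitochondrial UMIs, 6 members were at least 2-fold higher, with Cdkn1a at 2.41 and Mdm2, at 0.97, no longer among them.

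Other p53 targets outside the 33 were mixed. In macrophage-like nuclei 4 of 27 measured targets were at least 2-fold higher in Aza-TdC than in MASLD and 3 were lower (14.8% and 11.1%), where 6.16% and 10.3% of all genes were. Bcl2l1, which encodes the survival factor BCL-XL, had 165 and 432 CPM in MASLD and Aza-TdC, a log2 ratio of 1.39 (1.08 to 1.71), and Ckap2, a spindle gene, had 58.6 and 2.79 CPM. In hepatocyte-like nuclei 7 of 40 were at least 2-fold higher and 3 lower in MASLD than in SD, 17.5% and 7.5%, near the 13.8% and 5.04% of all genes. The genes named next therefore stand for themselves, not for the list. Pltp, a phospholipid transfer protein gene, had 6.26, 28.7 and 48.3 CPM, and Ptp4a3, a phosphatase gene, 1.24, 5.1 and 4.88. Gls2, a mitochondrial glutaminase gene, had 471, 111 and 205 CPM and Lpin1, a phosphatidate phosphatase gene, 2576, 1020 and 748, so that both were highest in SD. In Aza-TdC against MASLD, 0 of 39 were at least 2-fold higher and 0 lower, and Gls2 had a log2 ratio of 0.88 (0.83 to 0.93).

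Damage and repair genes outside the 33 differed little between MASLD and SD hepatocyte-like nuclei. Of 25 measured damage signalling genes and of 20 mismatch and nucleotide excision repair genes, 0 lay past 2-fold in either direction. Of 22 base excision genes 1 was higher, the glycosylase gene Neil2, with 1.04, 4.69 and 1.99 CPM. Of 32 double-strand break and crosslink genes 2 were higher and 1 was lower. In Aza-TdC against MASLD the damage signalling, mismatch and nucleotide excision, and double-strand break lists had 0 genes past 2-fold, and the base excision list had 0 of 23 higher and 2 (8.7%) lower, Neil2 and Neil3, where 5.32% of all genes were lower. H2afx at -0.94 (-1.2 to -0.68) and the checkpoint kinase gene Chek2 at -0.59 (-0.82 to -0.36) stayed inside it.

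Senescence genes and secreted factors had 7 of 14 measured members at least 2-fold higher in MASLD than in SD and 0 lower, 50% and 0% beside the 13.8% and 5.04% of all genes. Cycling genes had 11 of 28 higher (39.3%) and 1, Rrm2, lower, at low levels such as 0.473, 1.49 and 0.542 CPM for Mki67. In Aza-TdC against MASLD, 4 of 17 senescence genes and 3 of 26 cycling genes were at least 2-fold lower (23.5% and 11.5%, where 5.32% of all genes were), and 0 were higher. Among genes of nucleoside uptake and phosphorylation, which handle cytidine analogues, 4 of 21 were higher (19%) and 1 lower in MASLD than in SD, near the shares of all genes. With Aza-TdC 0 of 21 were higher and 2, the kinase genes Nme1 and Nme2, were lower than in MASLD. The cytidine deaminase gene Cda had 29.4, 60.8 and 71.5 CPM.

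A few members stood higher in other cell classes than in hepatocyte-like nuclei, per UMI of the class. In every library Pvt1 and Psrc1 stood at 2 or more times their hepatocyte level in macrophage-like nuclei, Fas and Plk2 in endothelial-like nuclei, Pvt1 in stellate-like and in T and NK cell-like nuclei, and Btg2 in mesothelial-like nuclei. For Psrc1 the hepatocyte level rests on 5, 8 and 9 UMIs. Its count in SD macrophage-like nuclei was below the floor of 3 UMIs, so its SD ratio carries little weight. Fas had 154, 139 and 126 CPM in endothelial-like nuclei, 11.8, 3.45 and 3.62 times the hepatocyte level. The endothelial intervals of Fas overlapped, at 113 to 207, 107 to 177 and 91.5 to 168. Plk2 had 72.1, 45.5 and 58.6 CPM there, 20.6, 5.62 and 16.5 times the hepatocyte level. Hepatocyte markers in endothelial-like nuclei stood at 0.584, 0.721 and 0.473 of their hepatocyte level.

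The following counts are of members at least 2-fold from SD, with the shares of all genes in brackets. Endothelial-like nuclei had 1 of 16 higher and 0 lower in MASLD (11.7% and 5.82% of genes) and 0 of 14 higher and 1 lower in Aza-TdC (7.85% and 5.4% of genes). Stellate-like nuclei had 0 of 12 higher and 1 lower in MASLD (10.9% and 7.22% of genes) and 1 of 10 higher and 1 lower in Aza-TdC (8.99% and 9.62% of genes). Mesothelial-like nuclei had 0 of 4 higher and 1 lower in MASLD (16.1% and 13.7% of genes) and 1 of 6 higher and 0 lower in Aza-TdC (12.7% and 8.76% of genes). T and NK cell-like nuclei had 2 of 3 higher and 0 lower in MASLD (17.8% and 18.4% of genes) and 3 of 3 higher and 0 lower in Aza-TdC (16.8% and 15.8% of genes). The T and NK cell-like class held only 23, 47 and 40 nuclei and the mesothelial-like class 28, 45 and 57. With so few nuclei and measured members, the counts in these classes carry little weight.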

How the data were processed

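Nuclei from 120 mg of frozen liver were sorted on DAPI and sequenced with 10x Genomics 3′ chemistry, as the labels' protocols describe. The deposited files hold unscaled UMI counts for each gene in each nucleus; per the file headers, the authors ran Cell Ranger 6.1.2. The submitters' processing notes name Seurat 4.4.0, mm10 and GRCm38. Annotation release, introns, strand and any removal of doublets or free RNA: not given in the sources used here.

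Nuclei needed 500 UMIs, 300 genes and no more than 5% mitochondrial UMIs. The smallest barcode held 1546, 500 and 500 UMIs, so the libraries had been filtered unequally. All nuclei were clustered jointly and not integrated, with scanpy 1.11.5 and igraph 0.11.9 (3000 variable genes, 30 components, 15 neighbours, Leiden resolution 1). Mixed immune cluster 5 was split into 6, giving 21 clusters. A cluster was named for the non-hepatocyte class with the highest median log2 ratio of markers, at least 3, and failing that hepatocyte-like where 3 or more markers reached 0.25 of their highest level. A name was dropped where leading genes held at least 2 more markers of another class than its own, a margin set after clusters 8 and 9 had been seen, or in shallow clusters. Unnamed cluster 11 (106 MASLD, 117 Aza-TdC nuclei) entered no class. No doublet caller was run.

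UMIs were summed per class and library and scaled to CPM. Ratios have exact conditional binomial, levels exact Poisson and shares exact Clopper-Pearson 95% intervals. A ratio against 0 UMIs is a bound at 3 UMIs. Promoters are RefSeq, coordinates GENCODE. The ratio code was tested on simulated data. Members and lists were chosen with earlier results of these data known. Full values are given for Trp53, Mdm2, Cdkn1a, Ccng1 and members past 2-fold in hepatocyte-like nuclei. Other lists name up to 4 genes with the interval bound farthest from 0. Some genes of these lists are not reported here. Macrophage-like nuclei, and cluster 14, were taken up after their levels had been seen.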

Additional observations from a re-analysis of the deposited data

How the results depend on the processing

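No paired analysis was possible because each group had 1 library. Alternatives that leave out clusters, and all those for macrophage-like nuclei, were chosen after seeing the data. In hepatocyte-like nuclei the number of members at least 2-fold higher in MASLD than in SD was 10 or 11, and in Aza-TdC than in SD 6 or 7, over the alternatives run. At 1.5-fold these numbers were 13 and 9. At 1.5-fold, 1 member was lower in MASLD than in SD, 6 were lower in Aza-TdC than in MASLD and 2 in Aza-TdC than in SD. The shares of all genes at 1.5-fold are not given here, so the 1.5-fold counts have no background beside them. Against MASLD, 1 was higher in Aza-TdC with a matched mitochondrial share, and 1 was higher and 5 lower without clusters 8 and 9. Median-ratio scaling removes a shift of all genes of 0.16, -0.1 and 0.06 on the log2 scale for MASLD against SD, Aza-TdC against MASLD and Aza-TdC against SD. It took the median of members in Aza-TdC against MASLD to -0.035 and gave 1 member lower in Aza-TdC than in SD. Subtracting hepatocyte RNA took the pairs of a member and another class at 2 or more times the hepatocyte level from 7 to 13, or from 5 to 9 distinct members.

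In macrophage-like nuclei, Aza-TdC against MASLD, 4 members were higher and 0 lower with at least 100 UMIs per gene. At 1.5-fold 12 were higher and 2 lower, and with hepatocyte RNA subtracted 12 were higher. For these settings too the shares of all genes are not given here, so the counts cannot be read against a background. There were 2 lower without cluster 18, without cluster 20 and in the Kupffer-like clusters 16, 19 and 20 alone, where Aen turned to -1.2. The Kupffer-like clusters held only 19 MASLD nuclei, against 250 from Aza-TdC. In them 6 log2 ratios of members were marked as moved, 1 as reversed and 6 as the same. The causes were not tested, apart from the threshold's own effect on counts. The 31 SD macrophage-like nuclei limit every level read from them.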
